A study of Homo sapiens with 6 samples.

Results

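Cytokines of the IL6 and LIF family act through gp130, a signalling receptor chain encoded by IL6ST, and the measurements here follow 10 genes of that pathway: the cytokines LIF, IL6, IL11 and CLCF1, the receptor chains LIFR, IL6R, IL6ST and OSMR, the transcription factor STAT3 and its feedback inhibitor SOCS3. The genes were listed by name, and every probe set whose platform gene entry holds one of these symbols was taken. That gave 30 of the 54613 tested probe sets, each naming a single gene. They read 9 of the 10 genes, and CLCF1 was not analysed here. RNA came from MDA-MB-436, an established triple-negative human breast tumour cell line, and was measured on 6 Affymetrix arrays in 2 groups. Cells labelled wild type gave 3 arrays, and cells of the same line transfected with NF1-C2S gave the other 3. The series record writes the construct as NF1-C2, which is nuclear factor I-C, a transcription factor encoded by NFIC, and describes a stable transfection with an expression plasmid. All cells grew in RPMI-1640 with serum and insulin, and no group with an empty plasmid is named. The labels do not say if the transfected cells were 1 clone or a pool, or if replicates were separate cultures, so p-values measure only the spread between these arrays, which may be technical.

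In this pathway IL6 binds IL6R and IL11 binds IL11RA, and each pair then engages gp130. LIF joins LIFR to gp130, while oncostatin M can use OSMR with gp130. The receptor chains carry JAK kinases, which phosphorylate STAT3. STAT3 enters the nucleus and switches on target genes that include SOCS3, whose protein binds gp130 and the kinases and shuts the signal down. In breast tumour cells, IL6 and LIF are known as secreted cytokines that can act on the cells that make them and on neighbouring cells.

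The cytokine genes were higher on the transfected arrays and the shared receptor chain was lower. LIF, IL6 and IL11 rose, with 1 IL11 probe set much more than the other, and so did the receptor chains LIFR and IL6R on some of their probe sets. IL6ST and STAT3 fell, and the probe sets of OSMR went opposite ways. SOCS3 rose on 1 of its 4 probe sets. Of the 30 member probe sets, 11 were higher and 9 lower past the threshold (limma, Benjamini-Hochberg adjusted p under 0.05 over all probe sets), and 10 did not pass. Over all probe sets, 10.8% were called higher and 11.4% lower, or 22.2% in either direction, so calls were common on these arrays. The median log2 change was 0.14 over the members and 0.007 over all probe sets. On the brightest probe set of each gene, 7 members were higher and 2 lower, where 13.6% and 15.4% of 19777 genes were called so.

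The bases before the transcription start are shown for 4 members on which the results turn: IL6 and IL11, which rose, OSMR, whose probe sets disagreed, and IL6ST, which fell. Promoter sequences of RefSeq (GRCh38.p14) matched 8 of the 10 members, not LIF or CLCF1, in 11 windows. Each sequence is the 250 bases before a start, on the strand of the gene and 5′ to 3′. Capitals mark matches, on either strand, to letters of a STAT site (TTCNNNGAA), an NF-kappaB site (GGGANNTTC), a C/EBP site (TTGCNNAA), an AP-1 site (TGANTCA) or a full nuclear factor I site (TTGGC, then 5 bases, then its reverse complement). None of the printed matches overlaps another.
IL6, chr7:22726950-22727199, plus strand: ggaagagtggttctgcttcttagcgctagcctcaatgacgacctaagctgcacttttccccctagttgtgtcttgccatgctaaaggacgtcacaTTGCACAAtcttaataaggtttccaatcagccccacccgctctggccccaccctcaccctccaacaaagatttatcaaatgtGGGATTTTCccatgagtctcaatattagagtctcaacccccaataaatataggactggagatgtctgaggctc
IL11, chr19:55370464-55370713, minus strand: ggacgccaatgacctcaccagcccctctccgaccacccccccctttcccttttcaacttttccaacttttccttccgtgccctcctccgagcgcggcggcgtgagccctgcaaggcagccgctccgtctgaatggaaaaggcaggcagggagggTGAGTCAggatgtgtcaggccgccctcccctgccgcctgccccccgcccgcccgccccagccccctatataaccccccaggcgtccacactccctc
OSMR, chr5:38845762-38846011, plus strand: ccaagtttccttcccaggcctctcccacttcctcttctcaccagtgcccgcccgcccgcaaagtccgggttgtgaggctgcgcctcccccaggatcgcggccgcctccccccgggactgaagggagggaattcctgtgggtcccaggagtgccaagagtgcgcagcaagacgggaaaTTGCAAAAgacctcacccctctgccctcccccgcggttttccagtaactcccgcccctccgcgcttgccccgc
IL6ST, chr5:55994964-55995213, minus strand: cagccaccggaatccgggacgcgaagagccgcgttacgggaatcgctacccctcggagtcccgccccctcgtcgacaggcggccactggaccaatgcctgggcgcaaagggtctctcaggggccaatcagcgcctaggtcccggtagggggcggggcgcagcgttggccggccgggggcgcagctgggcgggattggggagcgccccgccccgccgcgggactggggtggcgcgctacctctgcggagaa

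The IL6 window held an NF-kappaB match, GGGATTTTC, 73 to 65 bases before the start, and a C/EBP match, TTGCACAA, 155 to 148 bases before it. An NF-kappaB match was in 3.52% of 35116 windows of this length over all genes and a C/EBP match in 9.05%. The IL11 window held an AP-1 match, TGAGTCA, 96 to 90 bases before the start, as did 6.57% of all windows. The OSMR window held a C/EBP match, TTGCAAAA, 73 to 66 bases before the start, and the IL6ST window held no match. A LIFR window, not printed, held the same C/EBP letters 31 to 24 bases before its start. STAT matches, found in 6.57% of all windows, were in LIFR windows and in no other member's window. The full nuclear factor I site was in no member window and in 0.0285% of all windows. Among the 11 member windows, the short site TTGGC alone, which is not in capitals, was in 1 window each of IL6ST, IL11, LIFR, OSMR, SOCS3 and STAT3. It was in 40.8% of all windows, a share by window and not by gene. These are matches of letters, and nothing about binding was measured. The motifs were chosen after the data were seen, so the shares are a description and no test.

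LIF encodes leukaemia inhibitory factor, which signals through LIFR and gp130. Its only probe set, 205266_at, read 8.40, 8.27 and 8.61 on the log2 scale on the wild type arrays and 11.23, 11.10 and 11.19 on the transfected arrays. Every transfected array was above every wild type array. The means were 8.43 ± 0.17 and 11.17 ± 0.07 (SD, n = 3 each), a 6.71-fold rise (log2 change 2.75, SE 0.10, limma adjusted p = 4.4e-06). In bulk RNA such a change cannot be split into a change in the share of cells that express a gene and a change in RNA per cell.

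IL6, the cytokine that gives the family its name, was already bright in wild type cells. Its only probe set, 205207_at, read 10.35, 10.30 and 10.46 in wild type and 12.43, 12.21 and 12.47 in transfected cells. The groups lay far apart relative to their spread. The rise was 4.0-fold (log2 change 2.0, SE 0.097, limma adjusted p = 1.11e-05). RMA, the method behind the deposited values, compresses differences between dim signals, and LIF and IL6 were bright in both groups.

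IL11 encodes a cytokine with its own receptor chain, IL11RA. Its probe set 206924_at read 3.61, 3.40 and 3.91 in wild type cells, below the median of all probe sets (4.83), and 7.48, 7.34 and 7.51 in transfected cells. Values this dim are compressed, so the fold is a bound: measured against that median, the transfected mean was at least 6.11-fold higher (log2 change of the values 3.80, SE 0.13, limma adjusted p = 3.18e-06). The other IL11 probe set, 206926_s_at, was the brighter one on average and moved less. It read 6.17, 6.20 and 5.89 against 6.63, 6.45 and 6.65, a rise by 0.49 (SE 0.11, limma adjusted p = 0.0138), and this call ended without transfected replicate 3 (adjusted p = 0.0531). Both probe sets were higher on every transfected array, with very different sizes.

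**Figure D1:**
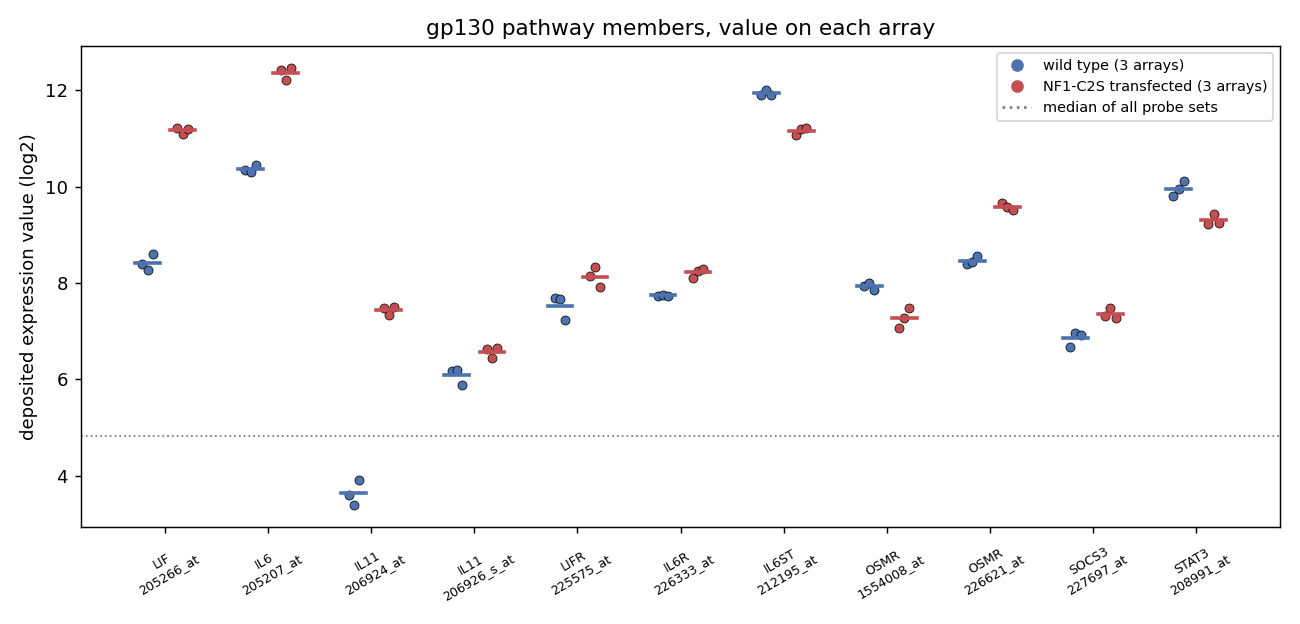
Deposited log2 values of the members on each array, for the brightest probe set of each of 9 genes, the second IL11 probe set and OSMR 1554008_at. Bars are at the group means (n = 3 each) and a dotted line is at the median of all probe sets, 4.83. OSMR 205729_at, which rose, is not shown. The groups do not overlap for any probe set shown, and IL11 206924_at is the only one with a group below the line.

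The patterns of LIF, IL6 and OSMR, the members whose brightest probe set changed at least 2-fold, were set against every other gene by Pearson's r over the 6 arrays, as a description. The genes most like LIF were TMEM9, IL1B, which encodes the inflammatory cytokine interleukin-1 beta, and PLAUR, the urokinase receptor, at r of 0.9993, 0.9993 and 0.9992. Their log2 changes were 1.12, 2.38 and 1.00. The genes most like IL6 were CNRIP1, NIPA1 and KDM2B (0.9996, 0.9996 and 0.9995), and those most like OSMR were RNPEP, RBBP9 and BCAT1 (0.9997, 0.9993 and 0.9992). With 3 arrays in each of 2 groups, any gene with a clear difference has a high r: 2492 genes had an r above 0.9 with LIF, 2508 with IL6 and 2408 with OSMR.

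IL6ST encodes gp130, the chain that all these cytokines share. Its brightest probe set, 212195_at, read 11.91, 12.01 and 11.90 in wild type cells and 11.08, 11.20 and 11.22 in transfected cells. All transfected arrays were lower. The fall was by 0.77 on the log2 scale (SE 0.08, limma adjusted p = 0.000326), or 1.71-fold, from 11.94 ± 0.06 to 11.17 ± 0.08 (SD, n = 3 each).

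Another 4 IL6ST probe sets fell too, and the groups overlapped in none of them. For 212196_at the values were 10.06, 10.18 and 9.90 against 9.09, 9.07 and 9.07, a fall by 0.97 (SE 0.09, limma adjusted p = 0.000198). The probe set 211000_s_at read 8.84, 8.91 and 8.57 against 7.87, 8.09 and 7.88 (log2 change -0.83). The probe set 204863_s_at read 8.48, 8.71 and 8.43 against 7.54, 7.75 and 7.86 (log2 change -0.82). All 3 were lower on every transfected array. The largest fall was that of 204864_s_at, from 7.54, 7.70 and 7.16 to 6.57, 6.48 and 6.29 (log2 change -1.02, SE 0.15, limma adjusted p = 0.0017). The remaining IL6ST probe sets, 234474_x_at and 234967_at, lay between 2.87 and 3.25 on all arrays and read -0.10 and -0.07 as log2 differences (adjusted p = 0.624 and 0.723). RefSeq lists a pseudogene, IL6STP1, on another chromosome. Probe sets ending in _s_at or _x_at may match several transcripts, and 212195_at and 212196_at do not end so. Whether any of the IL6ST probe sets also reads the pseudogene was not tested.

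LIFR, the chain that binds LIF, had 5 probe sets, and 2 of them rose. The brightest, 225575_at, read 7.70, 7.67 and 7.23 in wild type cells and 8.15, 8.33 and 7.92 in transfected cells (log2 change 0.60, SE 0.16, limma adjusted p = 0.0268). The probe set 227771_at read 6.86, 6.97 and 6.67 against 7.33, 7.49 and 7.17 (0.50, SE 0.11, limma adjusted p = 0.0165). In both, the lowest transfected array was above the highest wild type array, with small gaps. Both calls ended without wild type replicate 3 (adjusted p = 0.07 and 0.0612) or without transfected replicate 2 (0.0905 and 0.0585).

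The LIFR probe set 225571_at had overlapping groups, 6.16, 6.79 and 6.06 against 6.80, 7.12 and 6.70. Its log2 difference of 0.54 did not pass (limma adjusted p = 0.106) but did with the replicate number as a block, the fit that pairs arrays of the same number (limma adjusted p = 0.00768), and without wild type replicate 2 (log2 change 0.76, adjusted p = 0.0122). In each numbered pair the transfected array was the higher one. The dimmer probe sets 205876_at and 229185_at had log2 differences of 0.09 and 0.15 (adjusted p = 0.764 and 0.454), with 95% intervals of -0.24 to 0.42 and -0.11 to 0.42.

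IL6R encodes the chain that binds IL6, in the membrane or as a soluble form. Its brightest probe set, 226333_at, read 7.73, 7.76 and 7.74 in wild type cells and 8.11, 8.26 and 8.30 in transfected cells. The wild type arrays were nearly identical and the transfected ones all higher (log2 change 0.48, SE 0.08, limma adjusted p = 0.0037). The probe set 205945_at rose by a similar amount, from 6.20, 6.45 and 6.68 to 6.96, 7.03 and 7.21 (0.63, SE 0.13, limma adjusted p = 0.0109). The third, 217489_s_at, lay below the median of all probe sets at 4.35 and 4.56 and its log2 difference of 0.21 did not pass (adjusted p = 0.168).

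OSMR encodes the chain that pairs with gp130 for oncostatin M. Its brightest probe set, 226621_at, read 8.39, 8.43 and 8.56 in wild type cells and 9.66, 9.58 and 9.51 in transfected cells, a 2.18-fold rise (log2 change 1.12, SE 0.08, limma adjusted p = 7.15e-05). The probe set 205729_at rose alike, from 6.97, 7.34 and 7.41 to 8.35, 8.40 and 8.09 (1.04, SE 0.14, limma adjusted p = 0.00115). The third, 1554008_at, went the other way, from 7.95, 8.01 and 7.86 to 7.07, 7.28 and 7.48 (-0.66, SE 0.11, limma adjusted p = 0.0041). None of the 3 had overlapping groups, so the probe sets read unequal changes of what is annotated as the same gene. Which OSMR transcripts each of them reads is not known here.

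STAT3 encodes the transcription factor that the receptors activate. Its brightest probe set, 208991_at, read 9.81, 9.95 and 10.11 in wild type cells and 9.22, 9.44 and 9.24 in transfected cells, a fall by 0.66 (SE 0.11, limma adjusted p = 0.00299). The probe set 208992_s_at fell from 9.73, 9.73 and 9.89 to 9.32, 9.29 and 9.18 (log2 change -0.52), and 225289_at from 8.25, 8.39 and 8.25 to 7.93, 7.86 and 7.97 (-0.38, limma adjusted p = 0.0114). All 3 were lower on every transfected array, by 1.30-fold to 1.58-fold. The last probe set, 243213_at, lay at 4.24 and 4.22 in the groups, a log2 difference of -0.02 (adjusted p = 0.908). These values are of STAT3 RNA, and the phosphorylated form of the protein, which carries the signal, was not measured.

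SOCS3, a target of STAT3 and an inhibitor of gp130, rose on its brightest probe set only among its 4. That probe set, 227697_at, read 6.68, 6.96 and 6.92 in wild type cells and 7.32, 7.49 and 7.27 in transfected cells (log2 change 0.51, SE 0.11, limma adjusted p = 0.01). The log2 difference of the mean over the SOCS3 probe sets was 0.19 and did not pass (adjusted p = 0.0904). The probe sets 206359_at, 206360_s_at and 214105_at had log2 differences of 0.19, -0.09 and 0.13 (adjusted p = 0.305, 0.67 and 0.257). Of these, 214105_at lay between 4.15 and 4.32 on all arrays.

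**Figure D2:**
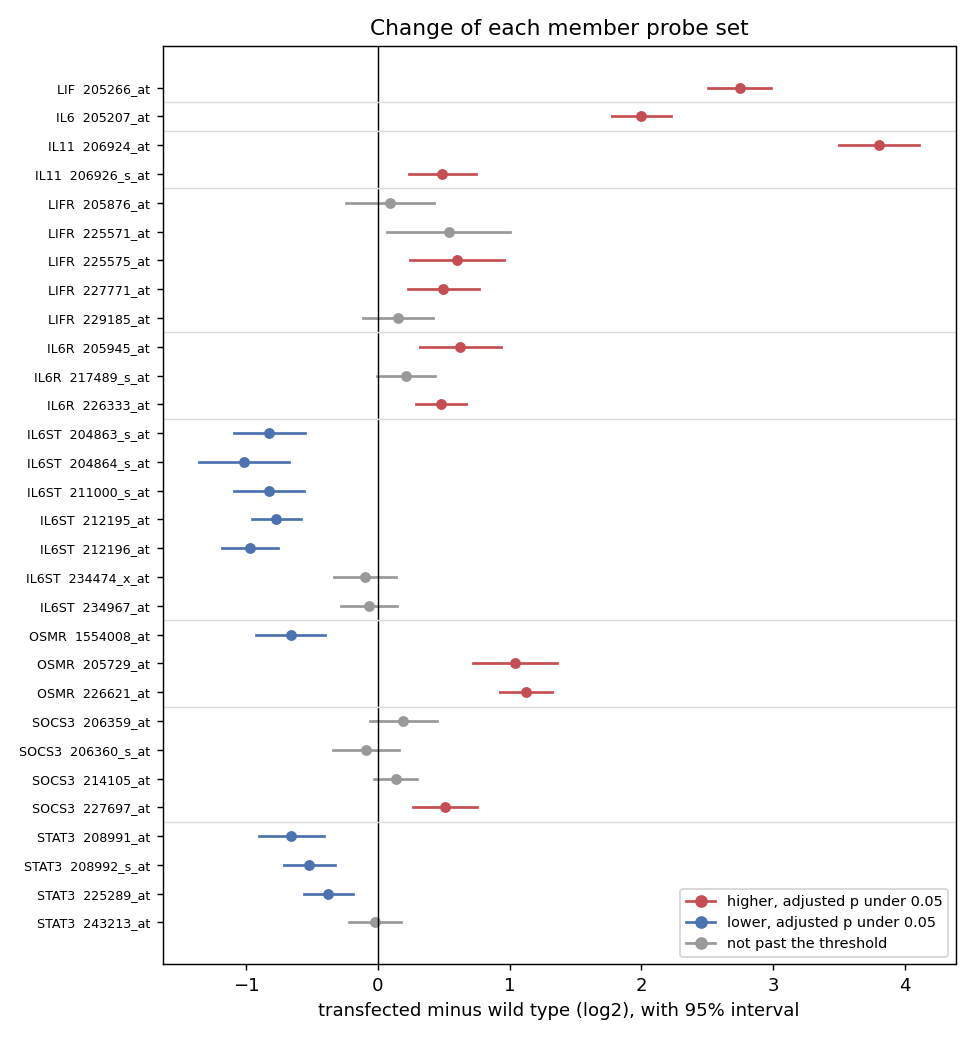
Log2 change, transfected minus wild type, of each of the 30 member probe sets, with its 95% interval from the limma fit (not adjusted for multiple tests), in colour where the adjusted p is under 0.05. LIF, IL6 and IL11 206924_at lie at about 2.0 or more, 5 of 7 IL6ST and 3 of 4 STAT3 probe sets have intervals wholly below 0, and the OSMR probe sets lie on both sides.

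The groups did not overlap in 21 of the 30 member probe sets, as was so for 34.9% of all probe sets. Of the 10 probe sets that did not pass, 6 had a group mean below the median of all probe sets.

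The other genes of the pathway went both ways. They were taken from 7 lists of 74 genes by role, of which 67 had a probe set naming them alone, and the brightest was used. Of these, 18 rose, 14 fell and 35 did not pass, with a median change of 0.05, while 29% of all genes were called in either direction. The lists were written with earlier results of these data known.

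Among the other gp130 cytokines, EBI3, a subunit of interleukin-27, was the 1 of 5 that rose, from 5.70, 5.59 and 6.07 to 7.30, 6.92 and 7.01 (log2 change 1.29, SE 0.15, limma adjusted p = 0.000588). OSM, which encodes the ligand of OSMR, lay at 4.74 and 4.87, close to the median of all probe sets (adjusted p = 0.715). Of 4 other receptor chains, 3 fell. IL11RA, the receptor chain of IL11, read 6.91, 6.95 and 6.80 in wild type and 5.88, 5.80 and 5.76 in transfected cells (log2 change -1.07, SE 0.08, limma adjusted p = 7.19e-05). It was lower where its ligand was higher, although a dimmer IL11RA probe set, 1552646_at, read -0.13 (adjusted p = 0.676). IL31RA, which pairs with OSMR as the receptor of interleukin-31, fell from 5.62 ± 0.46 to 4.33 ± 0.05 (SD, n = 3 each). Its transfected mean lay below the median of all probe sets (4.83), so the fall is a bound, at least 1.73-fold. The dimmer IL31RA probe sets 1555431_a_at and 1553032_at read -1.15 and -0.11 (limma adjusted p = 0.000139 and 0.739). IL27RA, which pairs with gp130, fell from 7.77 ± 0.04 to 7.05 ± 0.07.

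Both sheddases, the membrane proteases that can release IL6R from the cell surface, rose. ADAM10 read 8.52, 8.77 and 8.56 in wild type and 10.16, 10.26 and 10.11 in transfected cells, a 2.95-fold rise (log2 change 1.56, SE 0.09, limma adjusted p = 2.96e-05), and ADAM17 rose by 0.90 (SE 0.11, limma adjusted p = 0.000842). Each has 3 probe sets, and all 6 rose. Among the kinases and the SHP2 arm of the pathway 1 of 8 rose, JAK1 by 0.26 (limma adjusted p = 0.0398), a call that ended with the replicate block (adjusted p = 0.0566) and when any 1 array was left out. No other JAK1 probe set passed. SOS1 and GRB2, named after their values were seen, did not pass on their brightest probe sets (-0.15 and -0.04). SOS1 was lower on 212777_at (log2 change -0.42, limma adjusted p = 0.0145) and 212780_at (-0.29, 0.0306), and GRB2 on 215075_s_at (-0.27, 0.0421). Their remaining probe sets did not pass. The kinase genes JAK2 and TYK2 read -0.19 and 0.32 and did not pass, though TYK2 did without transfected replicate 1 (adjusted p = 0.0211).

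Of 4 other STAT factors, STAT6 and STAT5B rose by 0.38 and 0.33 (limma adjusted p = 0.0193 and 0.014). STAT4 fell from 5.31 to 4.50, which is below the median of all probe sets (limma adjusted p = 0.00268). The other 4 STAT5B probe sets read 0.02 to 0.06, and the STAT6 call ended without wild type replicate 1 or 2 or transfected replicate 3 (adjusted p = 0.0691, 0.0573 and 0.0694). The STAT5B call ended without wild type replicate 3 (adjusted p = 0.05, not under the threshold). Among 14 negative regulators, 4 rose, 5 fell and 5 did not pass, where 13.6% of all genes were called higher and 15.4% lower. CISH, which fell by 0.36, and PIAS3, which rose by 0.45, were named after their values were seen. The CISH call ended under 6 alternatives and the PIAS3 call under 2. SOCS1, an inhibitor of JAK kinases, rose from 5.41 ± 0.33 to 6.55 ± 0.05 on the probe set 210001_s_at (log2 change 1.14, limma adjusted p = 0.00121), while its other 3 probe sets, all dimmer, read 0.05 to 0.29 and did not pass. PIAS2, of the family named as inhibitors of activated STATs, rose by 1.08. SOCS2 fell from 7.39 ± 0.17 to 6.33 ± 0.50 (limma adjusted p = 0.0129, and 0.0561 without wild type replicate 2), and PTPN1, a tyrosine phosphatase that acts on JAK kinases, fell by 0.62. Averaged over its 4 probe sets, PTPN1 read -0.22 (adjusted p = 0.0504). SOCS5, named after its values were seen, is counted among those that did not pass, from its brightest probe set 208127_s_at (log2 difference -0.36, limma adjusted p = 0.0503). That probe set was called lower under 8 alternatives, the replicate block among them (adjusted p = 0.0184), and the other 2 SOCS5 probe sets fell by 0.64 and 0.49 (limma adjusted p = 0.00228 and 0.0159).

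Known STAT3 target genes went both ways: 8 of the 30 measured rose and 5 fell, while 17 did not pass, with a median of 0.10. The largest rise was that of LCN2, which encodes the iron-carrier protein lipocalin-2, from 5.88, 5.30 and 6.32 to 9.26, 8.83 and 9.77 (10.95-fold, log2 change 3.45, SE 0.30, limma adjusted p = 0.000135). The adhesion molecule ICAM1 rose by 1.47, the metabolic enzyme NNMT by 1.33 and the transcription factor CEBPD by 1.12. In CEBPD, wild type replicate 3 (10.29) stood above the other wild type arrays (9.45 and 9.44), but below every transfected array. The 5 target genes that fell were named after their values were seen. They were CCND1, the cell cycle gene of cyclin D1 (log2 change -0.86), the protease inhibitor TIMP1 (-0.81), MYC (-0.59), JUNB (-0.41) and BIRC5 (-0.38). The calls of JUNB and BIRC5 each ended when some single arrays were left out (adjusted p up to 0.13 and 0.111). Among the targets that rose, the call of BCL2L1 ended under 9 alternatives. These include the replicate block (limma adjusted p = 0.0529), the mean of its probe sets (0.169) and leaving out any 1 array (up to 0.117). Its other probe sets read 0.05 to 0.22 and did not pass. BCL6 passed in the fit with the replicate block alone (log2 change 0.43, adjusted p = 0.00811, and 0.102 without the block). Many of these genes are also known targets of other factors, among them NF-kappaB and AP-1. The liver acute-phase genes CRP, FGA, FGB and FGG lay below the median of all probe sets in both groups.

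The genes next to the members were read in gene order, as a description of the loci. By the brightest probe set, 13.6% of all genes were called higher and 15.4% lower. Around LIF, the nearest 3 measured genes on each side had log2 differences of -0.32 to 0.47, and 1 of 6 was called. OSM, which lies near LIF, is among them. Around IL6 the differences were -0.75 to 0.03, with 4 of 6 lower, the antisense transcript IL6-AS1 among them, and none higher. Around IL11 the range was -0.03 to 0.44 with 1 of 6 higher, and around IL6R -0.08 to 0.41 with 2 of 6 higher. LIFR and OSMR are adjacent on chromosome 5, and RICTOR beside them rose by 0.36 (limma adjusted p = 0.0356). FYB1, the next gene, fell from 5.77 to 4.23, below the median of all probe sets. IL6ST lies on the same chromosome next to IL31RA, which also fell. The measured genes around IL6ST had differences of -2.16 to 0.09, with 2 of 6 lower, IL31RA and LOC101928419. The latter went from 5.91 to 3.76, below the median of all probe sets (log2 change -2.16, limma adjusted p = 0.000245). The others, IL6ST-DT among them, did not pass. The neighbours of STAT3 had differences of -0.13 to 0.33 with none lower, and those of SOCS3 of -0.44 to 0.06 with 3 of 6 lower.

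**Figure D3:**
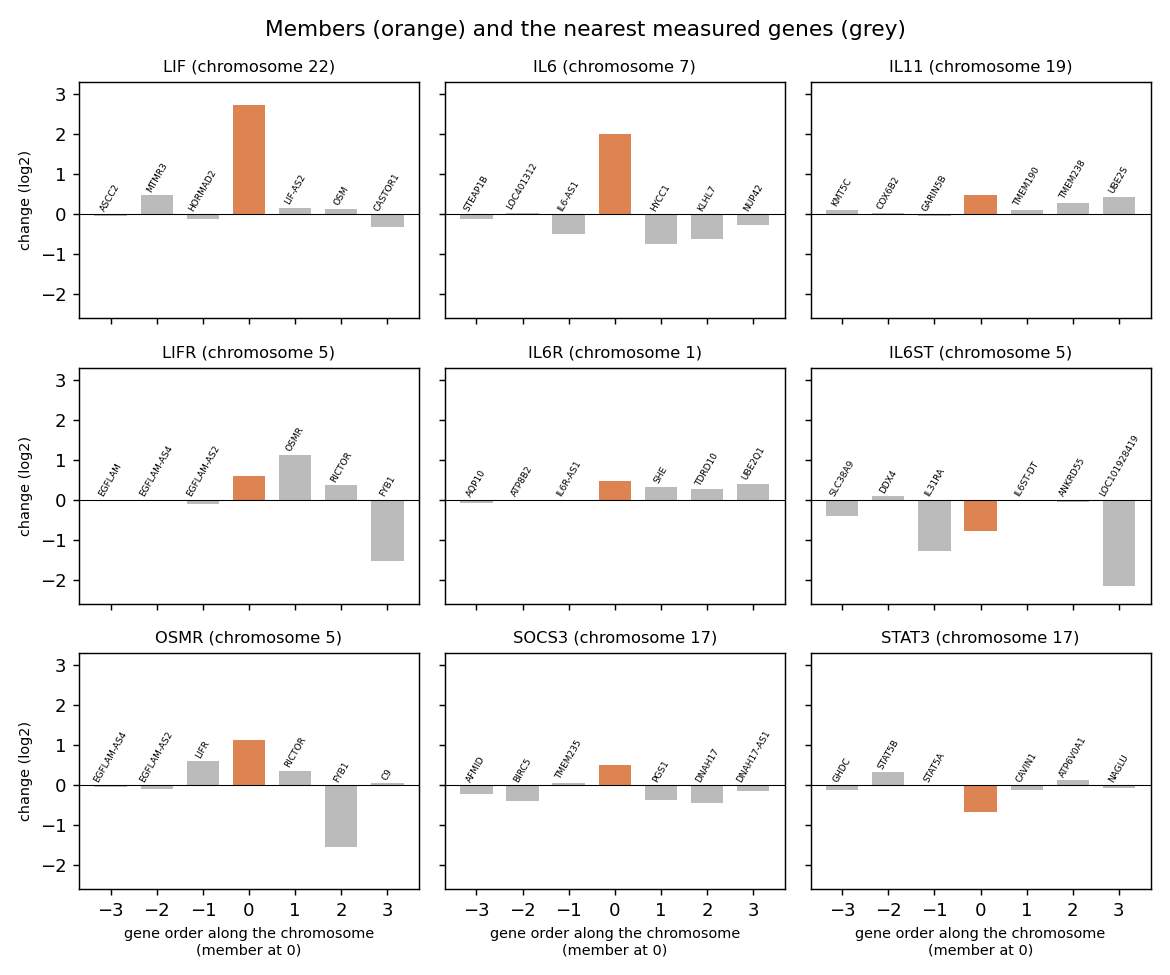
Log2 change, transfected minus wild type, of the brightest probe set of each member (orange) and of the nearest 3 measured genes on each side (grey), in gene order along the chromosome. LIF and IL6 stand above their neighbours, and IL31RA and LOC101928419 fall near IL6ST. The IL11 bar is 206926_s_at (0.49), and 206924_at (3.80) is not drawn. OSMR and LIFR rise side by side on the probe sets drawn, while OSMR 1554008_at, not drawn, fell.

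As a check of the series as a whole, arrays correlated at 0.9922 or more within groups and at 0.9709 to 0.9755 between them. NFIC, the gene of the transfected factor, was not called on any of its 4 probe sets (log2 changes -0.51 to 0.22), and it is not known if these read the RNA made from the plasmid, so they are no check of the labels. The labelled epithelial cell type had bright KRT18 (12.55 and 11.62 in the groups), while KRT19 and CDH1 lay below the median of all probe sets and vimentin was bright (13.54 and 13.01). Of 6 epithelial markers 2 fell, KRT18 and KRT7 (log2 changes -0.93 and -0.98). Of 4 mesenchymal ones 3 fell. These were FN1 (log2 change -2.77, limma adjusted p = 5.84e-06), vimentin (-0.525) and ZEB1 (-0.41), while CDH2 did not pass. The part of these shifts in the members' changes was not tested. The defining leukocyte markers PTPRC and CD3E lay below the median in both groups, at 3.65 and 3.86 and at 4.54 and 4.42. Of the other 2 measured leukocyte markers CD14 rose from 5.77 to 6.59 and ITGAM fell from 6.25 to 5.04. The summed leukocyte markers ranged from 7.32 to 7.45 on the log2 scale in wild type and from 7.27 to 7.48 in transfected arrays, and none of 4 endothelial markers changed past the threshold.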

How the data were processed

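RNA was measured on 6 arrays. The authors deposited log2 values per probe set, made with RMA per the submitters' processing notes; no version is stated. Arrays have no read depth, and their number limits the precision. The 62 control probe sets were left out. Groups and replicate numbers came from the labels. Genes were named through the platform annotation. The groups were compared over 54613 probe sets with limma 3.58.1 in R 4.3.3 (two-sided, moderated variance, Benjamini-Hochberg, threshold 0.05), and the fit was tested on simulated data. A gene outside the members is read by its brightest probe set. Named are all members and their probe sets, up to 4 called genes of each pathway list with the largest changes, the 3 genes most like each member changed at least 2-fold, and the nearest 3 genes on each side. The members and lists were chosen with earlier results of these data known. The promoter motifs were chosen after the data were seen, and the NF-kappaB motif was shortened after its matches were seen, so that more windows hold it. The deviations of arrays of the same replicate number correlated at 0.398, 0.238 and 0.14. Arrays of different numbers gave -0.277 to 0.142, so the pair of number 3 did not stand out. The planned test, which gave the main results, has no block and does not pair the arrays. The blocked fit, which pairs arrays by number, is an alternative only. Further alternatives were other normalizations, array weights, variance priors, probe set filters, gene summaries and leaving out each array.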

Additional observations from a re-analysis of the deposited data

How the results depend on the processing

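Under 16 alternatives, 23 of the 30 member probe sets kept their call and direction in each alternative that could read them. The exceptions were on probe sets of LIFR, IL11, SOCS3 and STAT3. With the replicate block, LIFR 225571_at was gained (log2 change 0.537) and no other member call changed; 13470 probe sets were called in place of 12142. Without probe sets ending in _s_at or _x_at, 7153 probe sets and 19 in place of 32 pathway genes were called. That setting leaves out 4660 and 11 of those called, and other calls ended among those it keeps, JAK1 (adjusted p = 0.059) and BCL2L1 (0.0508) among them. Leaving out each array in turn gave 18 to 21 called member probe sets, 8 to 9 members called by the brightest probe set, 9732 to 12358 probe sets and 25 to 30 pathway genes. The uncalled LIFR 205876_at ranged from -0.053 to 0.202 in those fits, and STAT3 243213_at from -0.078 to 0.012; the sign turned without wild type replicate 3 in both (-0.053 and 0.012) and in the latter also without transfected replicate 3 (0.01). The cause was not tested. LIF ranged from 2.667 to 2.838, IL6 from 1.95 to 2.08 and IL6ST 212195_at from -0.8 to -0.73. The dim end of the RMA scale limits what IL11 206924_at in wild type cells and the dim probe sets can show.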

Other observations

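Transcripts antisense to the members, or divergent from them, have probe sets of their own, which no comparison above used as a member. IL6-AS1, a noncoding RNA from the opposite strand at IL6, read 5.02, 5.23 and 5.13 in wild type cells and 4.42, 4.79 and 4.69 in transfected cells. It was lower on every transfected array (log2 change -0.49, SE 0.11, limma adjusted p = 0.0165), while IL6 itself rose by 2.0. LIF-AS2 read 4.71 ± 0.01 and 4.88 ± 0.12 (SD, n = 3 each) and did not pass (limma adjusted p = 0.246). IL6R-AS1, IL6ST-DT and a probe set shared by LIFR-AS1 and MIR3650 lay between 2.84 and 4.08 in group means, with log2 differences of -0.04, -0.01 and 0.08. These noncoding transcripts all lie near or below the median of all probe sets, 4.83. They were named after their values were seen.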
